A study of Mus musculus with 8 samples.

Results

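Fatty acids reach a muscle fibre from the blood, are stored in lipid droplets as triglyceride or pass into the mitochondria, and are there shortened step by step by beta-oxidation. Muscles rich in slow fibres, such as the soleus (SOL), draw much of their energy from this route. The 37 genes described here encode its parts, from the lipase on the capillary wall to the electron transfer proteins of the inner mitochondrial membrane. They were chosen by name from the known pathway and by no rule on measured values, though earlier results of these data were known. All 37 have a row in the deposited table, which lists 24054 genes, and all 37 had reads in every mouse, with the fewest being 81 reads for Angptl4 in 1 library.

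The table holds RNA-seq values of SOL from 4 MI4KO and 4 flox mice, all male and of the C57BL/6 strain. Flox mice carry Irf4 flox/flox alleles without Cre, and MI4KO mice carry the same alleles with Cre driven from the Myl1 locus, which is selective for skeletal muscle fibres, so that both groups share the floxed alleles and the other cells of the muscle keep Irf4. IRF4 is a transcription factor best known from immune cells. The labels give a high-fat diet for every mouse, the diet of the animals used for sequencing is not stated in the study's text, and no age was given in the sources used here. Each mouse gave 1 library, and mice are numbered 1 to 4 within a group by ascending label number. Values are CPM, the reads of a gene relative to the library's total, after TMM scaling of the libraries.

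The labels and libraries were checked before the pathway was read. Irf4 was 0.686, 1.46, 1.58 and 1.68 in flox mice 1 to 4 and 0.725, 0.840, 0.266 and 1.03 in MI4KO mice 1 to 4, which rests on 4 to 23 reads a mouse, and flox mouse 1 lay within the MI4KO range. Its log2 fold change was -0.45 (SE 0.20, adjusted p = 0.99996) by limma, with an exact permutation p of 0.114, and the floxed region was not separated from the rest of the gene. At values near 1 the added 1 shrinks this difference, which was -0.61 and -0.88 with 0.5 and 0.1 added instead, and -0.31 without MI4KO mouse 3, where Irf4 was lowest. The 10 fibre markers summed to between 96681 and 115510 in each mouse, with Acta1, Myh2 and Myh7 present in all 8 libraries. In 2 libraries genes of other marker lists stood high. All 9 liver markers with a row were highest in flox mouse 1, where they summed to 130.6 against 0.133 to 0.763 in the other mice. In MI4KO mouse 3, all 13 genes of a glucocorticoid or fasting response list were highest, with a sum of 4383 against 2413 to 2776, and the 6 neutrophil markers summed to 12.8 against 1.58 to 4.36. Values without these mice are given beside the results that they moved most. Total reads on genes ran from 13916450 to 16137925 in flox and from 13417512 to 16384565 in MI4KO mice.

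The promoter windows of 9 of the genes described below hold the letters AGGTCA. This is the core element recognised by nuclear receptors such as the PPARs, which are known to act on fatty acid genes. The 250 bases before the transcription start that RefSeq gives (build GRCm38.p6) are shown for 4 of these 9. They were picked by their values, since among the 9 they differed most between the groups or stood out most in MI4KO mouse 3. Of the 2 RefSeq starts of Plin5 the one farther upstream was used, and the 250 bases before the nearer start hold no AGGTCA. Ucp2, at 1.37 times the median of the other mice in MI4KO mouse 3, holds none before its start either. Capitals mark AGGTCA, or TGACCT where it lies on the opposite strand, and each sequence runs 5′ to 3′ toward the start site.
Cpt1a (chr19:3323051-3323300, plus strand): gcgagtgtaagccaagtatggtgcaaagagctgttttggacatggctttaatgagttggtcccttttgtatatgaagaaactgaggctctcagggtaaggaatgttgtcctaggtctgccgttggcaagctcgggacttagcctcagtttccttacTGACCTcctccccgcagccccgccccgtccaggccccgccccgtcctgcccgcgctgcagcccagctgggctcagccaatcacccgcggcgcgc
Ucp3 (chr7:100472741-100472990, plus strand): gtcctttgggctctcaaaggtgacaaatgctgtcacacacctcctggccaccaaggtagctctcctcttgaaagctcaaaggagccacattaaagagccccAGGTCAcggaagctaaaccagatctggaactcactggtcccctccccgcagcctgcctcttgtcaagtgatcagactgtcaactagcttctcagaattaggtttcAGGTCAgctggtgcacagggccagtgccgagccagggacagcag
Plin5 (chr17:56117549-56117798, minus strand): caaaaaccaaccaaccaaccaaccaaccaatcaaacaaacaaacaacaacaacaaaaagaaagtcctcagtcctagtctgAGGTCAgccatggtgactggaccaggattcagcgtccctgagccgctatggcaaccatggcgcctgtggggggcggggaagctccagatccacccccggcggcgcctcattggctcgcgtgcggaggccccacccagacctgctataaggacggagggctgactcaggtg
Plin2 (chr4:86670060-86670309, minus strand): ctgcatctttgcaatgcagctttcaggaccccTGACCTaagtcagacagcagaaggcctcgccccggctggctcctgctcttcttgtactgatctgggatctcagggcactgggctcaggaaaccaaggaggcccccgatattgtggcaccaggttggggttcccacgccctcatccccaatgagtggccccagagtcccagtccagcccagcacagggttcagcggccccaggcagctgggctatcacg
In Ucp3 the element occurs 2 times, beginning 149 and 44 bases before the start, both on the strand of the gene. It begins 170 bases before the start in Plin5, also on the gene's strand. In Plin2 and Cpt1a it lies on the opposite strand, 218 and 94 bases before the start. RefSeq windows of 300 bases, from 250 before to 50 after the start, were found for 28 of the 37 genes, 33 windows in all. AGGTCA on either strand was in 10 of these 33 windows, or 30.3%, belonging to 9 genes (Acacb, Acadm, Acadvl, Cd36, Cpt1a, Echs1, Plin2, Plin5 and Ucp3), and in 16.3% of all 32851 windows. Its direct repeat AGGTCANAGGTCA, which overlaps with AGGTCA by construction, was in none of the 33 windows and in 0.0396% of all windows. The core of the interferon-stimulated response element, GAAANNGAAA, to which IRF proteins are known to bind, was in none of the 33 and in 3.44% of all. A match gives letters only, and nothing about binding was measured here.

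Hadha and Hadhb encode the subunits of the mitochondrial trifunctional protein, which carries out the last steps of each cycle on long chains, and they lie head to head on chromosome 5. Their RefSeq promoter windows share 228 bases (chromosome 5, 30155003 to 30155230), and the stretch before Hadhb is shown because the pair is read outward from it.
Hadhb (chr5:30155003-30155252, plus strand): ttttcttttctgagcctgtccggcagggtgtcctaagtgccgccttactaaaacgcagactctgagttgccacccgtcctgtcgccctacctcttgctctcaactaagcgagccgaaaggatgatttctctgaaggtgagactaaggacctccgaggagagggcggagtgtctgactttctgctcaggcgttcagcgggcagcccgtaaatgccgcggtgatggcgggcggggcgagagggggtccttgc
It holds no AGGTCA, so none of its letters are in capitals. Their values are given below with the other enzymes of the cycle.

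In SOL, the genes differed widely in level and little between the groups. Levels were compared between genes as values per kilobase of the longest principal transcript, since exons merged over all transcripts include retained introns for several of these genes. In flox mice Fabp3, the heart-type fatty acid binding protein that carries fatty acids through the cytosol, stood at 5761 ± 301 per kilobase (mean ± SD, n = 4) and was by either length the highest of the 37. Hadhb, at 844 ± 19.5, and then Lpl, Acadm, Acadvl, Acadl, Acaa2 and Etfb followed, from 653 down to 553 per kilobase, and neighbours from Acadm to Acadl, and Acaa2 and Etfb, differed by less than the SD of either. With merged exons, the length planned, the order below Fabp3 began with Acadl, Acaa2 and Acadvl instead. The lowest 4 genes were the same by both lengths, namely Angptl4 at 2.70 ± 0.301, Cpt1a at 4.08 ± 0.304, Dgat1 at 6.37 ± 0.361 and Ucp2 at 7.69 ± 0.480 per kilobase of principal transcript.

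**Figure D1:**
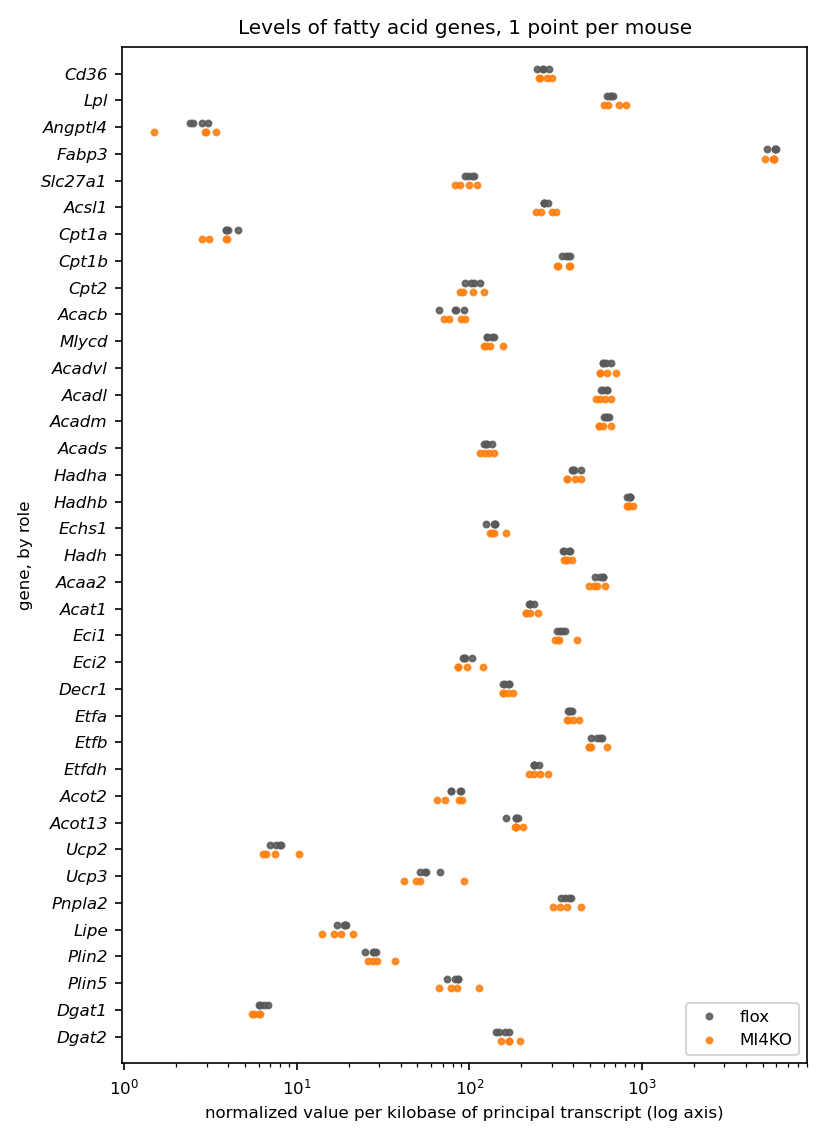
Value per kilobase of the longest principal transcript on a log axis for each of the 37 genes, 1 point per mouse, flox in grey and MI4KO in orange. Fabp3 lies highest and Angptl4 and Cpt1a lowest, and for every gene the points of the groups overlap.

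Several steps of the pathway are served by more than 1 gene, and ratios of levels, taken within each mouse per kilobase of merged exons, compare such genes. The ratio of Cpt1b, the muscle carnitine palmitoyltransferase of the outer mitochondrial membrane, to Cpt1a, the liver form, was 137 ± 11.2 in flox and 159 ± 26.8 in MI4KO mice. With principal transcripts it was 90.1 ± 7.39 in flox and 105 ± 17.7 in MI4KO mice. For Ucp3 over Ucp2, the uncoupling proteins of muscle and of many tissues, the ratio was 10.2 ± 1.06 in flox and 10.3 ± 1.96 in MI4KO mice. For Dgat2 over Dgat1, the enzymes that add the last acyl chain to triglyceride, it was 29.1 ± 3.78 in flox and 35.4 ± 5.31 in MI4KO mice. Plin5, the lipid droplet coat protein of oxidative tissues, had a ratio to Plin2, a widely expressed coat protein, of 5.37 ± 0.628 in flox and 5.03 ± 0.436 in MI4KO mice. Acacb, which makes malonyl-CoA at the mitochondrial surface, had a ratio to Acaca, the cytosolic enzyme of lipid synthesis, of 44.6 ± 3.40 in flox and 43.7 ± 5.15 in MI4KO mice. So in each case 1 gene of the pair stood higher, by a factor that varied with the pair and with the length used. With principal transcripts Ucp3 over Ucp2 was 7.47 ± 0.775 in flox and 7.52 ± 1.43 in MI4KO mice. Dgat2 over Dgat1 was then 24.5 ± 3.18 in flox and 29.8 ± 4.47 in MI4KO mice. Plin5 over Plin2 was 3.03 ± 0.355 in flox and 2.84 ± 0.247 in MI4KO mice by that length. Acacb over Acaca was 27.3 ± 2.07 in flox and 26.7 ± 3.14 in MI4KO mice. Partners of 1 complex were closer. With merged exons Hadhb over Hadha was 1.39 ± 0.0779 in flox and 1.44 ± 0.0900 in MI4KO mice. With principal transcripts it was 2.07 ± 0.115 in flox and 2.14 ± 0.133 in MI4KO mice. Etfb over Etfa was 1.46 ± 0.0726 in flox and 1.36 ± 0.0861 in MI4KO mice with merged exons. It was 1.45 ± 0.0718 in flox and 1.34 ± 0.0852 in MI4KO mice with principal transcripts. For Lpl over Angptl4, which inhibits it, the ratio was 103 ± 12.8 in flox and 117 ± 38.7 in MI4KO mice with merged exons. By principal transcripts it was 244 ± 30.5 in flox and 278 ± 92.0 in MI4KO mice. These ratios, chosen after levels were known, overlapped between the groups for 8 of 9 pairs. The exception was Pnpla2, the lipase that takes the first chain from triglyceride, over Lipe, hormone-sensitive lipase, at 19.2 ± 0.411 in flox and 20.3 ± 0.595 in MI4KO mice. Its flox values ran from 18.6 to 19.5 and its MI4KO values from 19.8 to 21.1. This lack of overlap fixes the exact two-sided permutation p at 0.0286, below which 8 mice in equal groups cannot go, so that it adds no support. After Benjamini-Hochberg adjustment over the 9 pairs p was 0.257, which does not cover the choice of pairs after levels were known. The antisense gene 4732471J01Rik covers all of Lipe, and whether the counting used strand was not given in the sources used here.

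Between MI4KO and flox mice, no gene of the pathway passed the test, and for every one the values of the groups overlapped. At an adjusted p under 0.05 by limma, 0 of 37 were called, against 0 of 11865 genes tested (0%). At an unadjusted p under 0.05 there was 1 of 37, Cpt1a, where 3.36% of all genes tested lay, and for 0 of 37 the fold also reached 1.5, where 0.219% of all lay. Groups that do not overlap were found for 0 of 37 genes and for 2.07% of all. The log2 fold changes, MI4KO minus flox on the log2(value + 1) scale, ran from -0.25 for Cpt1a to 0.14 for Dgat2, with a median of -0.0014 beside -0.015 over all genes tested. Of the 37, 17 were higher and 20 lower (54.1% lower, 56.2% over all). The direction of this split follows the scaling, since 16 were lower with median-of-ratios scaling and 12 with columns brought to the same sum, where 48.2% and 40.1% of all genes were lower.

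How small a difference these libraries could hold can be read from the intervals. The 95% limma interval of the fold change stayed within 1.5-fold in both directions for 37 of 37 genes, and did so for 90.7% of all genes tested. It stayed within 1.25-fold for 30. The intervals that reached farthest were those of Cpt1a, to 1.41-fold, Angptl4, to 1.38-fold, Ucp3, to 1.36-fold, and Plin2, to 1.27-fold, each counted from no change. The coefficient of variation among flox mice had a median of 5.29% over the 37 genes and 9.32% over all, and among MI4KO mice 10.7% and 12.1%. For low genes the added 1 makes fold changes smaller, as for Angptl4 with values near 9. Bulk RNA cannot tell fewer cells of a type from less RNA per cell.

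**Figure D2:**
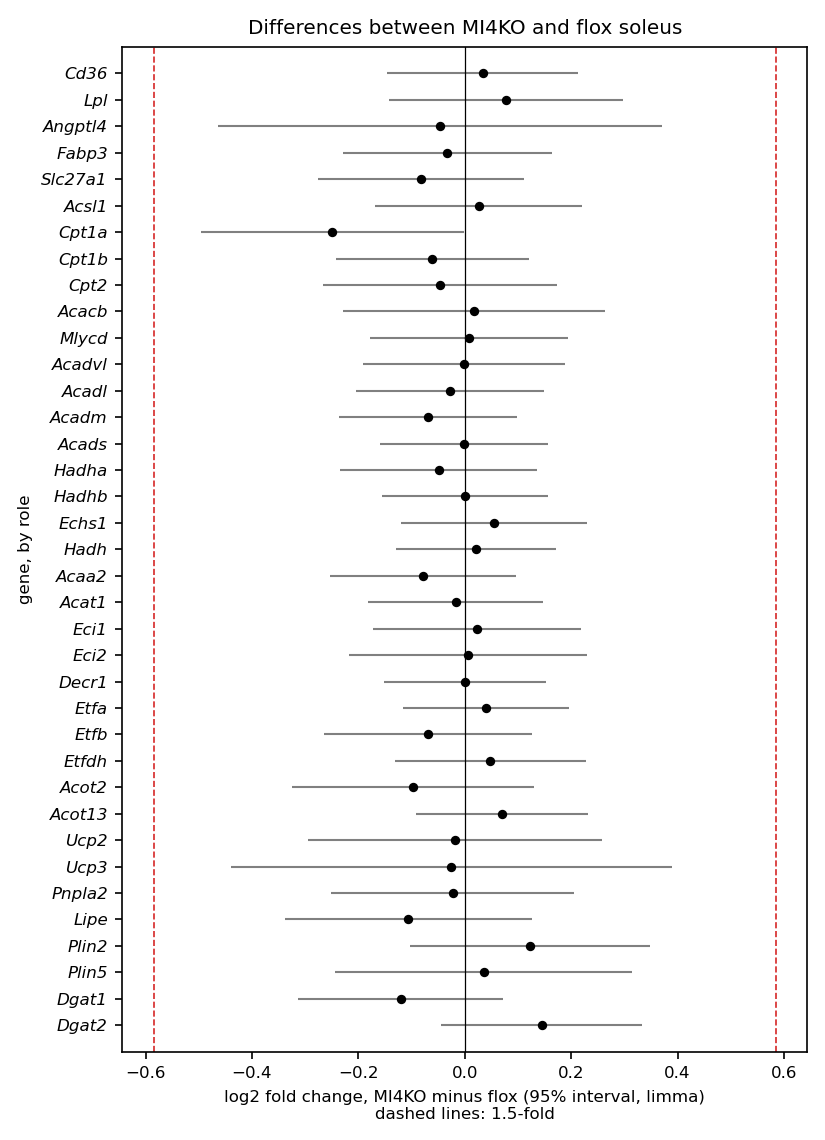
Log2 fold change, MI4KO minus flox, of each of the 37 genes with its 95% interval from limma, genes ordered by role. All intervals lie between the dashed lines at 1.5-fold, and that of Cpt1a alone does not reach 0.

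Uptake and activation comprised 6 genes, 3 higher and 3 lower in MI4KO mice by the fitted difference, with a median log2 difference of -0.0034. Cd36, the fatty acid translocase of the plasma membrane, was 908, 977, 902 and 833 in flox mice 1 to 4 and 868, 861, 1026 and 954 in MI4KO mice 1 to 4. Lpl, which frees fatty acids from blood lipoproteins and is made by fat cells as well as muscle fibres, was 2778, 2707, 2690.1 and 2569 in flox mice 1 to 4 and 3021, 2609, 3312 and 2467 in MI4KO mice 1 to 4. The highest values of both were in MI4KO mouse 3, and the remaining MI4KO mice lay among the flox mice or, for Lpl, on either side of them. The log2 fold changes were 0.034 (SE 0.083, adjusted p = 0.99996) for Cd36 and 0.077 (SE 0.10) for Lpl, and without MI4KO mouse 3 they were -0.016 and 0.0022. Fabp3 was 4373, 4838, 4839.6 and 4913 in flox mice 1 to 4 and 4734, 4767, 4791 and 4249 in MI4KO mice 1 to 4. Flox mouse 1 and MI4KO mouse 4 were low for Fabp3, each apart from the other 3 mice of its group, and its log2 fold change was -0.033 (SE 0.090). Fabp3 overlaps Gm10570 and Zcchc17 on the other strand at its ends.

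Slc27a1, a fatty acid transport protein that also has acyl-CoA synthetase activity, and Acsl1, the main long-chain acyl-CoA synthetase of muscle, had log2 fold changes of -0.082 (SE 0.089) and 0.026 (SE 0.089). Acsl1 was 1068 ± 27.2 in flox and 1093 ± 131 in MI4KO mice. Angptl4, which inhibits lipoprotein lipase and is a known PPAR target, was 9.35, 7.98, 8.25 and 10.1 in flox mice 1 to 4 and 9.87, 11.2, 9.77 and 4.90 in MI4KO mice 1 to 4. MI4KO mouse 4 was the lowest and MI4KO mouse 2 the highest of all 8, and the group means were 8.93 and 8.93. Without MI4KO mouse 4 its log2 fold change was 0.19 in place of -0.047, with an adjusted p of 0.973.

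The carnitine shuttle moves long-chain fatty acids into the mitochondrion, and malonyl-CoA restrains its entry step. Of its 5 genes, Cpt1a, Cpt1b and Cpt2 were lower and Acacb and Mlycd higher in MI4KO mice by the fitted difference, with a median log2 difference of -0.047. Cpt1a (GRCm38, chromosome 19, 3322334 to 3385733, plus strand) was 19.6, 16.9, 17.3 and 16.8 in flox mice 1 to 4 and 12.2, 17, 13.3 and 16.7 in MI4KO mice 1 to 4. MI4KO mice 1 and 3 lay well below every flox mouse and MI4KO mouse 4 just below, while MI4KO mouse 2 lay among the flox mice and flox mouse 1 was the highest. The log2 fold change of Cpt1a was -0.25 (SE 0.11, adjusted p = 0.99996), its fold interval ran from 0.709 to 0.999, its unadjusted limma p was 0.0484, and p was 0.0857 in an exact two-sided permutation test. Flox mouse 1, with the highest Cpt1a, is the mouse with liver markers, and Cpt1a is the liver isoform. Without flox mouse 1 the log2 fold change of Cpt1a was -0.20. Without it, or without any other flox mouse, the 37 held no gene at an unadjusted p below 0.05 (2.19% to 3.71% of all genes). The part of the liver RNA in the value was not tested. Cpt1a was lower in MI4KO mice under all 20 alternative settings, with log2 fold changes between -0.32 and -0.16, and its smallest adjusted p among them was 0.903.

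Cpt1b, which lies within Gm44502, annotated on the same strand, was 1054, 999, 1112 and 1079 in flox mice 1 to 4 and 931, 939.5, 1095 and 1115 in MI4KO mice 1 to 4. Cpt2, which rebuilds acyl-CoA on the inner membrane, was 248 ± 20.9 in flox and 241 ± 35.5 in MI4KO mice. For both, MI4KO mice 1 and 2 were the lowest of the 8, and the log2 fold changes were -0.061 (SE 0.084) and -0.047 (SE 0.10). Acacb was 818, 589, 727 and 735 in flox mice 1 to 4 and 627, 666, 781 and 828 in MI4KO mice 1 to 4, and each group spanned most of the other's range. Mlycd, the enzyme that breaks down malonyl-CoA, was 281 ± 12.1 in flox and 284 ± 34.6 in MI4KO mice, with log2 fold changes of 0.0079 (SE 0.085) for Mlycd and 0.017 (SE 0.11) for Acacb.

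Acyl-CoA dehydrogenases open each cycle of beta-oxidation and differ in the chain length they take. Acadvl, for very long chains, was 1342 ± 68.4 in flox and 1345 ± 139 in MI4KO mice, and Acadl, for long chains, was 1162 ± 50.1 in flox and 1142 ± 101 in MI4KO mice. Acadm, for medium chains, was 1285.02, 1261, 1320.2 and 1236 in flox mice 1 to 4 and 1149, 1154, 1348 and 1220.53 in MI4KO mice 1 to 4. MI4KO mice 1 and 2 were the lowest of the 8 for Acadm and MI4KO mouse 3 was the highest. Acads, for short chains, was 237 ± 10.2 in flox and 237 ± 18.4 in MI4KO mice. The fitted difference was below 0 for 4 of 4, from -0.069 (SE 0.077) for Acadm to -0.0013 (SE 0.087) for Acadvl, and the highest value was in MI4KO mouse 3 for 4 of 4. None of these differences exceeded its own SE.

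The hydratase, dehydrogenase and thiolase steps complete the cycle. Hadha was 1575, 1593, 1789 and 1625 in flox mice 1 to 4 and 1484, 1485, 1769 and 1633 in MI4KO mice 1 to 4. Hadhb was 1738, 1750.3, 1756 and 1669.8 in flox mice 1 to 4 and 1734, 1667, 1808 and 1707 in MI4KO mice 1 to 4. The range of Hadhb over all 8 mice was narrow, and the group means, 1729 ± 39.8 in flox and 1729 ± 59.3 in MI4KO mice, differed by less than the SD of either. Its 95% interval for the fold change was 0.897 to 1.11. For Hadha it was 0.850 to 1.10 around a log2 fold change of -0.049.

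Echs1, the short-chain enoyl-CoA hydratase, was 213 ± 12.3 in flox and 221 ± 21.8 in MI4KO mice, with flox mouse 2 low at 194. Hadh, the dehydrogenase for short and medium chains, was 652 ± 29.6 in flox and 661 ± 28.9 in MI4KO mice. Acaa2, the mitochondrial thiolase for fatty acids, was 810.4, 871, 899 and 905 in flox mice 1 to 4 and 752, 798, 926 and 829 in MI4KO mice 1 to 4. MI4KO mouse 1 was the lowest for Acaa2 and MI4KO mouse 3 the highest, and the log2 fold change was -0.079 (SE 0.081). Acat1, the thiolase that also serves ketone body use, was 772 ± 23.0 in flox and 765 ± 62.7 in MI4KO mice. Of the 6 genes of these steps 3 were higher and 3 lower, with a median log2 difference of -0.0085.

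Unsaturated fatty acids need auxiliary enzymes that move or reduce their double bonds. Eci1 and Eci2, the enoyl-CoA isomerases, were 386 ± 16.0 in flox and 395 ± 54.1 in MI4KO mice and 167 ± 8.94 in flox and 169 ± 29.0 in MI4KO mice, respectively. Eci2 was 161, 163, 180.1 and 164 in flox mice 1 to 4 and 149, 149, 211 and 168 in MI4KO mice 1 to 4, with MI4KO mouse 3 above all other mice and MI4KO mice 1 and 2 below all others. Decr1, the dienoyl-CoA reductase, was 486 ± 19.7 in flox and 487 ± 30.2 in MI4KO mice. Log2 fold changes of these 3 genes were 0.023, 0.0063 and 0.00079. Without MI4KO mouse 3, those of Eci1 and Eci2 were -0.069 and -0.10.

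The electron transfer flavoprotein takes electrons from the acyl-CoA dehydrogenases, and its oxidoreductase passes them to ubiquinone. Etfa, the alpha subunit, was 532 ± 13.3 in flox and 548 ± 41.4 in MI4KO mice. Etfb, the beta subunit, was 451, 512, 525 and 487 in flox mice 1 to 4 and 441, 453, 559 and 438 in MI4KO mice 1 to 4. MI4KO mice 1 and 4 lay below every flox mouse for Etfb, MI4KO mouse 2 lay beside flox mouse 1, the lowest of its group, and MI4KO mouse 3 lay above all 4. Its log2 fold change was -0.069 (SE 0.090). Etfb overlaps almost entirely with Gm45233 on the same strand, and reads may have been split between them. Etfdh, the oxidoreductase, was 563, 565, 599.9 and 561 in flox mice 1 to 4 and 528, 562, 675 and 612 in MI4KO mice 1 to 4, again highest in MI4KO mouse 3.

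Uncoupling proteins and thioesterases are known to respond to fatty acid supply. Ucp3 (GRCm38, chromosome 7, 100472990 to 100486432, plus strand), the muscle uncoupling protein, was 135, 126, 137 and 164 in flox mice 1 to 4 and 121, 102, 227 and 127 in MI4KO mice 1 to 4. MI4KO mouse 3 was above every other mouse, at 1.78 times their median, MI4KO mouse 2 was the lowest, and flox mouse 4 was the highest of its group. Ucp3 had the widest spread of the 37 among MI4KO mice, with a coefficient of variation of 38.9%, and a log2 fold change of -0.025 (SE 0.19). Without MI4KO mouse 3 the log2 fold change was -0.26 (SE 0.097, adjusted p = 0.970). The antisense gene Gm10603 covers the first part of Ucp3.

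Ucp2 was 28.1, 30.4, 32.3 and 31.9 in flox mice 1 to 4 and 25.5, 29.9, 41.0 and 26.6 in MI4KO mice 1 to 4, and MI4KO mouse 3 was again the highest. Acot2, a mitochondrial thioesterase with a close paralog Acot1 from which short reads may not separate it, was 184 ± 13.5 in flox and 173 ± 27.1 in MI4KO mice. Acot13, a thioesterase of medium and long chains, was 131 ± 9.62 in flox and 137 ± 7.45 in MI4KO mice. Log2 fold changes were -0.019 (SE 0.13) for Ucp2, -0.10 (SE 0.10) for Acot2 and 0.070 (SE 0.074) for Acot13.

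Storage and lipolysis in the lipid droplet comprised 6 genes, of which 3 were higher and 3 lower by the fitted difference. Dgat2 (GRCm38, chromosome 7, 99153658 to 99182719, minus strand) was 363, 324, 336 and 384 in flox mice 1 to 4 and 347, 382, 445 and 384 in MI4KO mice 1 to 4. MI4KO mouse 3 was the highest and MI4KO mice 2 and 4 lay level with the highest flox mouse. Its log2 fold change was 0.14 (SE 0.087, adjusted p = 0.99996), which was the highest of the 37, and p was 0.171 in an exact two-sided permutation test. Leaving out MI4KO mouse 3 gave Dgat2 a log2 difference of 0.079. Dgat1 was 11.5, 12.9, 12.2 and 11.4 in flox mice 1 to 4 and 11.5, 10.6, 10.4 and 11.5 in MI4KO mice 1 to 4. MI4KO mice 2 and 3 were lowest for Dgat1, its log2 fold change was -0.12 (SE 0.089), and the exact permutation p was 0.0857.

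Plin5 (GRCm38, chromosome 17, 56111601 to 56117596, minus strand) was 148, 170.2, 171 and 165 in flox mice 1 to 4 and 133, 156, 224 and 168 in MI4KO mice 1 to 4. Plin2 (GRCm38, chromosome 4, 86648386 to 86670060, minus strand) was 54.2, 53.1, 46.9 and 51.9 in flox mice 1 to 4 and 48.8, 55.3, 70.1 and 52.3 in MI4KO mice 1 to 4. In both droplet coat genes MI4KO mouse 3 stood above the other 7, at 1.36 and 1.34 times their median, and the remaining MI4KO mice overlapped with the flox mice. Log2 fold changes were 0.035 (SE 0.13) and 0.12 (SE 0.10), and without MI4KO mouse 3 they were -0.11 and 0.018. Pnpla2 was 607, 647, 701 and 681 in flox mice 1 to 4 and 549.8, 606, 798 and 662 in MI4KO mice 1 to 4. Lipe was 61.8, 67.8, 69.9 and 68.4 in flox mice 1 to 4 and 50.7, 59.1, 76.1 and 65.3 in MI4KO mice 1 to 4. Both lipases were lowest in MI4KO mouse 1 and highest in MI4KO mouse 3, with log2 fold changes of -0.023 (SE 0.11) and -0.11 (SE 0.11).

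**Figure D3:**
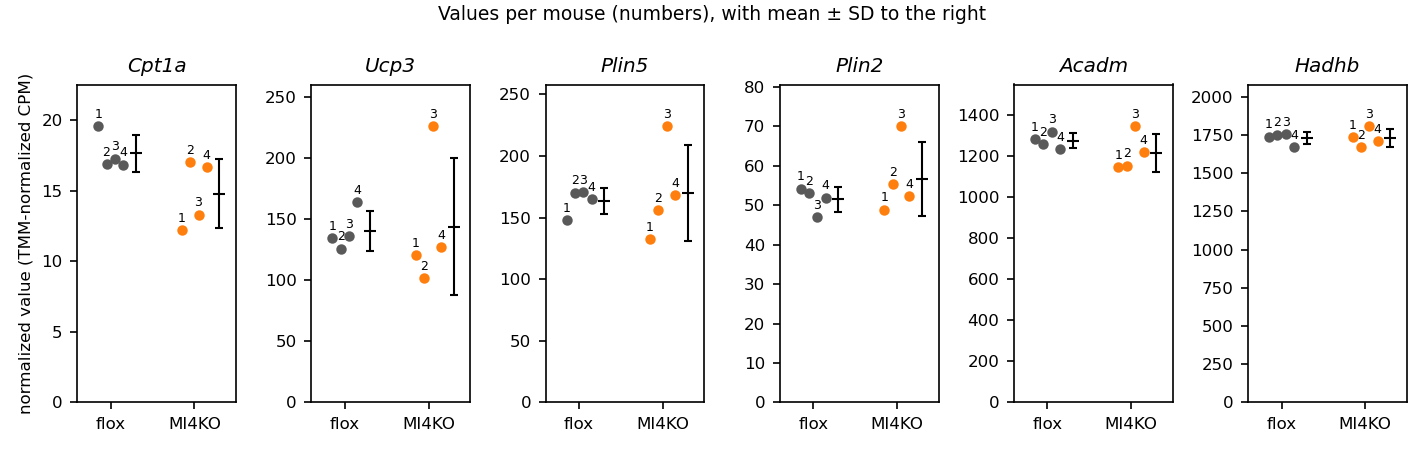
Values of 6 genes in each mouse, with the mouse number above each point and the group mean ± SD (n = 4) beside it, each axis starting at 0. Ucp3, Plin5 and Plin2 are highest in MI4KO mouse 3 (226.6, 224 and 70.1), Cpt1a is lowest in MI4KO mouse 1 (12.2), and Hadhb stays between 1667 and 1808.

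MI4KO mouse 3 had the highest value for 28 of the 37 genes, or 75.7%, where it was the highest of 8 mice for 30.9% of all genes tested. The median gene of the pathway lay 0.16 above its median over mice in MI4KO mouse 3 on the log2 scale, beside 0.050 over all genes. The 9 genes highest elsewhere were Angptl4, Fabp3, Acsl1, Cpt1a, Cpt1b, Acacb, Hadha, Acot2 and Dgat1. Among them Cpt1a and Dgat1 were lower in MI4KO mouse 3 than in the median of the other mice, at 0.789 and 0.903 times.

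The deposited column of MI4KO mouse 3 sums to 1089208, the highest of the 8, and this count changed with the scaling of the libraries. With median-of-ratios scaling it was the highest for 23 of 37 genes (62.2%) and 21.4% of all, and with equal column sums for 11 of 37 (29.7%) and 13.2% of all. Its median deviation on the log2 scale was then 0.087 and 0.035, and with equal column sums MI4KO mouse 4 (0.042) and flox mouse 2 (0.036) lay higher. The 11 genes were highest there under all 3 scalings, and they were Cpt2, Mlycd, Acadvl, Echs1, Eci1, Eci2, Ucp2, Ucp3, Pnpla2, Plin2 and Plin5. The ratio of MI4KO mouse 3 to the median of the others was 1.78, 1.68 and 1.59 for Ucp3 under the 3 scalings, in the order given. For Plin5 it was 1.36, 1.31 and 1.28. For Acadm it was 1.09, 1.04 and 0.984. The ratio therefore passed below 1 for Acadm and stayed above it for Ucp3 and Plin5. MI4KO mouse 2, with the lowest deposited column sum (917785), also moved with the scaling. Its median deviation was -0.084, -0.015 and 0.028 under the 3 scalings, and it was lowest for 9, 3 and 1 of the 37 genes. Its low places in single genes are therefore those of the deposited scaling. For MI4KO mouse 1 the median deviation was -0.094, -0.085 and -0.076.

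**Figure D4:**
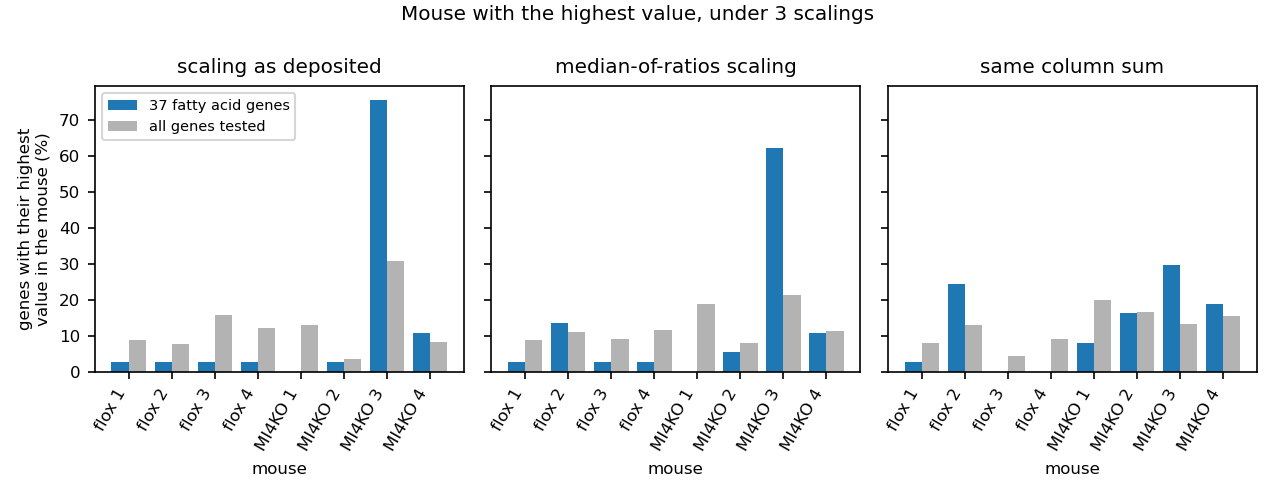
Share of genes, in percent, with their highest value in each mouse, for the 37 genes (blue) and all genes tested (grey), under the deposited scaling, median-of-ratios scaling and equal column sums. MI4KO mouse 3 holds 75.7%, 62.2% and 29.7% of the 37 genes and 30.9%, 21.4% and 13.2% of all genes.

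MI4KO mouse 3 was also the library in which the glucocorticoid or fasting list was highest. Fkbp5, a glucocorticoid target, was 159 there and 19.4 to 31.2 in the others, and Pdk4, which spares glucose when fat is burned, was 2469.8 there and 1562 to 1860 in the others. The part of these differences in the values of the fatty acid genes was not tested. MI4KO mouse 1 lay at the other end, with the lowest value for 15 of 37 genes, where it was lowest for 19.0% of all. In that mouse 7 of 9 white adipocyte markers and 6 of 7 endothelial markers were lowest too. The adipocyte markers, without Lpl, summed to 181.3 in MI4KO mouse 1 and 243 to 306 in the other mice, and the endothelial markers to 277 against 374 to 444. Most of the adipocyte sum was Fabp4. Without it the other 8 markers summed to 11.4 in MI4KO mouse 1, to 18.8 in MI4KO mouse 3 and to between 32.3 and 52.0 in the remaining mice, so that these markers were low in the MI4KO mouse with the lowest and in the one with the highest values of many fatty acid genes. The part of these cells in the values was not tested.

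**Figure D5:**
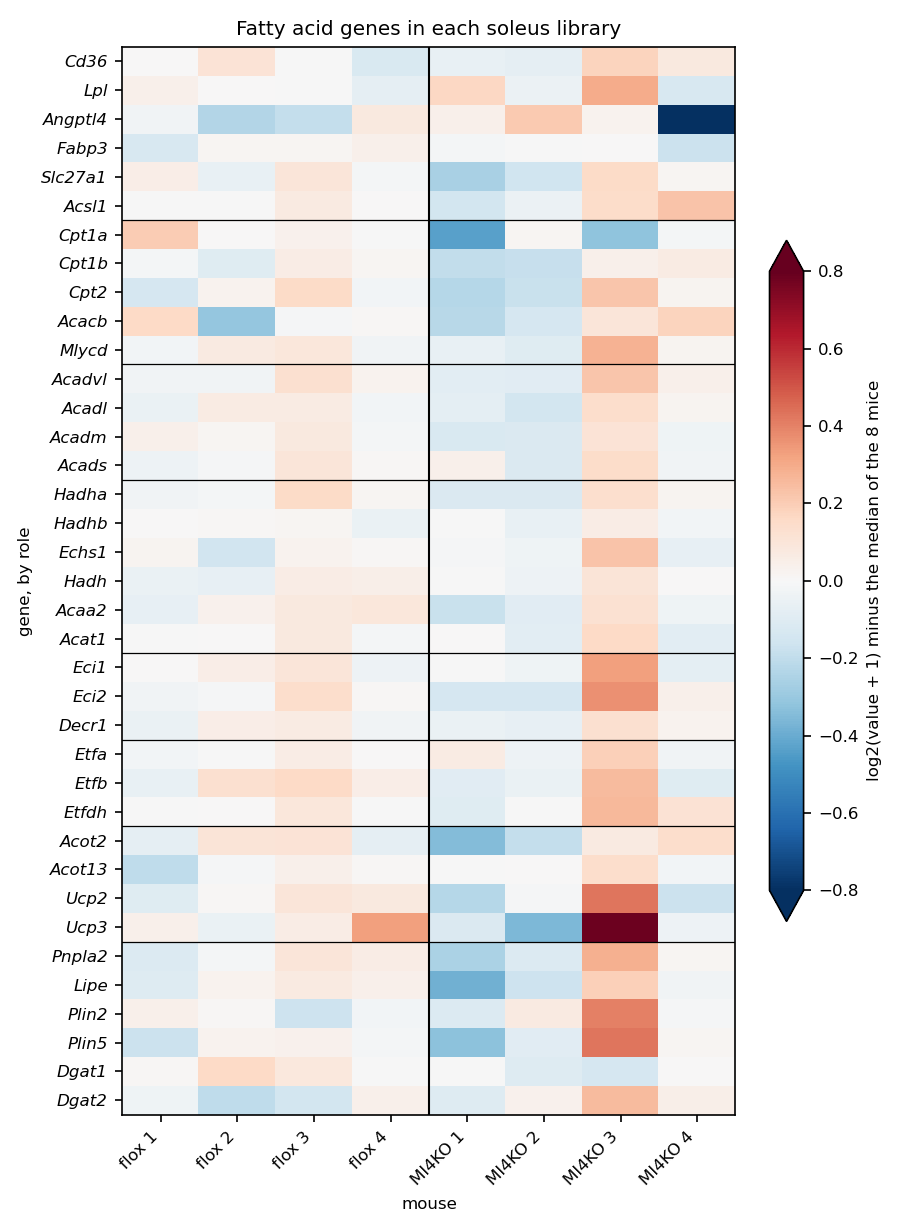
Log2(value + 1) of each of the 37 genes in each mouse minus the gene's median over the 8 mice, red above and blue below, with lines between roles. Values are on the deposited scaling. The column of MI4KO mouse 3 is red for most genes and deepest for Ucp3, and Cpt1a departs from the rest there. MI4KO mice 1 and 2 are mostly blue, which for MI4KO mouse 2 depended on the scaling.

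Without MI4KO mouse 3, 33 of the 37 genes were lower in MI4KO mice, where 66.6% of all genes tested were lower, and the median log2 difference was -0.072 beside -0.042 over all. At an unadjusted p under 0.05 there were then 3 of 37 (5% of all), all lower, namely Ucp3, Lipe at -0.20 and Etfb at -0.15, and 0 passed at an adjusted p under 0.05. Without flox mouse 1 as well, 32 were lower (64.9% of all) and the median was -0.087. In that comparison of 3 mice with 3, 5 genes lay under an unadjusted p of 0.05 (5.36% of all), Ucp3, Ucp2, Lipe, Etfb and Acaa2, all lower. MI4KO values were then below all flox values for 6 genes, and for 8.75% of all genes tested. Over the settings tried, the smallest adjusted p of any of the 37 genes was 0.894.

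The label numbers of the mice fall into 2 ranges, of which 1 holds flox mouse 1 and MI4KO mice 1 and 2 and the other holds the remaining 5. What a range stands for is not given in the sources used here. In the first range 29 of 37 genes were lower in MI4KO mice, where 61.4% of all genes tested were lower. The median log2 difference there was -0.057 (-0.049 over all genes). In the second 6 of 37 were lower (46.6% of all genes), with a median of 0.064 (0.013 over all genes). The split within ranges thus went opposite ways, for the 37 genes and, less far, for all genes. The first range rests on a single flox mouse, and the second holds MI4KO mouse 3. With the range as a covariate in limma, 24 of 37 were higher and 13 lower, where 52.7% of all genes were lower. The median was then 0.034 (-0.0060 over all genes), and 0 of the 37 passed the test.

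Summed over the 37 genes, reads made up 2.54% to 2.71% of all reads on genes in flox mice and 2.60% to 2.72% in MI4KO mice, so the pathway took a like share of each library, and in MI4KO mouse 3 it took 2.67%.

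The wider pathway was read through 86 further genes, of which 85 have a row and 77 passed the filter on low values. None of the 77 passed the test, 1 was higher and 4 were lower at an unadjusted p under 0.05, where 3.36% of all genes lay, and their median log2 difference was 0.012. Groups did not overlap for 2 of the 77, beside the 2.07% of all genes given above. Pparg, the nuclear receptor that drives fat cell formation, was 7.23, 8.12, 6.75 and 7.58 in flox mice 1 to 4 and 4.21, 5.30, 5.65 and 5.44 in MI4KO mice 1 to 4. Every MI4KO mouse was below every flox mouse, with a log2 fold change of -0.46 (SE 0.11, adjusted p = 0.99996). Lack of overlap was among the grounds for naming a further gene. It also fixes the exact two-sided permutation p at 0.0286, the smallest possible, so that this p adds no support. Adipoq, made by fat cells, was 5.99, 7.56, 7.05 and 6.70 in flox mice 1 to 4 and 2.18, 6.59, 2.99 and 9.97 in MI4KO mice 1 to 4 and overlapped between the groups. The adipocyte markers summed to between 244 and 306 in flox and between 181.3 and 276 in MI4KO mice, and without Fabp4 to between 32.3 and 42.7 in flox and between 11.4 and 52.0 in MI4KO mice. Their part in the values of Pparg was not tested.

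Acsl5 and Fabp5 had log2 fold changes of -0.28 (SE 0.11) and -0.41 (SE 0.17), and Vldlr, a lipoprotein receptor, of 0.19 (SE 0.087). At the ends of the list stood Plin1, the coat protein of fat cell droplets, at -0.54 (SE 0.38) and Foxo1, a transcription factor of the fasting response, at 0.40 (SE 0.34). Without MI4KO mouse 3 their log2 differences were -0.22 for Plin1 and -0.069 for Foxo1.

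By role, the 77 genes gave 12 of uptake and activation with a median log2 difference of 0.037, 5 of the carnitine system (0.0025), 18 of beta-oxidation (-0.012), 5 of ketone body use (0.0038), 22 of storage and lipolysis (-0.0022) and 15 transcriptional regulators (0.10). Some of the regulators stood apart in single mice. Foxo1 was 41.8, 29.3, 34.7 and 32.9 in flox mice 1 to 4 and 29.1, 32.5, 124 and 37.1 in MI4KO mice 1 to 4. Ppara, the PPAR of oxidative tissues, was 101, 73.7, 83.4 and 89.1 in flox mice 1 to 4 and 88.9, 81.8, 209.8 and 94.3 in MI4KO mice 1 to 4. Ppargc1a, the coactivator of mitochondrial genes, was 76.7, 28.5, 37.7 and 32.9 in flox mice 1 to 4 and 45.6, 35.1, 101 and 48.8 in MI4KO mice 1 to 4. For these 3 genes MI4KO mouse 3 was the highest of the 8, and for Ppargc1a flox mouse 1 was next. With MI4KO mouse 3 left out, the log2 difference was 0.033 for Ppara, in place of 0.34, and 0.072 for Ppargc1a, in place of 0.38. MI4KO mouse 3 was the highest for 45 of the 77 genes (58.4%, 30.9% of all genes), for 36 with median-of-ratios scaling (46.8%, 21.4% of all) and for 26 with equal column sums (33.8%, 13.2% of all). Without it 55 of the 77 were lower in MI4KO mice, where 66.6% of all genes tested were lower. The median log2 difference of the 77 was then -0.042, the same as the -0.042 over all genes.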

How the data were processed

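SOL RNA of 4 MI4KO and 4 flox mice was sequenced by the authors as Kapa stranded mRNA libraries with single reads of 50 bases, mapped to UCSC transcripts with Bowtie2 2.1.0 and quantified with RSEM 1.2.15, and the processing notes name mm10. The signal deposited for each gene and mouse is CPM after TMM normalization, and 100% of its non-zero values were whole multiples of 1 read (tolerance 0.01). The deposited fold changes, p-values and FDR of the authors' own comparison were not used. Recovered reads per mouse ran from 13417512 to 16384565, and 3 reads equal values of 0.181 to 0.225. This covers counting error only. No 2 libraries agreed within sampling noise. By a chi-square per degree of freedom on recovered reads, MI4KO mice 1 and 2 were near each other (6.42). Both lay farther from every other library (21.0 to 52.4), the farthest being MI4KO mouse 3. Flox mouse 1 lay at 10.5 to 11.4 from the other flox mice and nearer to MI4KO mouse 4 (7.775) than to any of them.

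Groups were taken from the labels and compared with limma 3.58.1 (R 4.3.3) on log2(value + 1), its trend option on, for genes at 1 or more in at least 4 mice, with Benjamini-Hochberg adjustment over all 11865 genes. On simulated reads of this comparison over 11763 genes, 87 of 100 genes changed 2-fold and 96 of 100 changed 4-fold were found, with 17 false calls. edgeR 4.0.16 and DESeq2 1.42.0 on recovered reads were alternatives, beside other pseudocounts, filters, scalings and mice left out. Single genes were tested with exact permutation tests (scipy 1.17.1). Gene positions and lengths are from GENCODE M21 (GRCm38) by symbol, and promoters from RefSeq (GRCm38.p6). The genes and lists were chosen with earlier results of these data known. All 37 genes are named, and of the further 86 those with an unadjusted p under 0.05, groups that do not overlap or the extreme fold changes. 1 of these is not reported here. Ppara, Ppargc1a, Adipoq, Fkbp5, Pdk4 and the pairs of genes set in ratio were chosen after seeing their values, and the lengths of principal transcripts the other scalings of the count per mouse, the differences of further genes without MI4KO mouse 3 and the adipocyte sum without Fabp4 were added then too.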

Additional observations from a re-analysis of the deposited data

Results flagged for a closer look

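Within groups of 4 mice, 8 of 74 groups (37 genes in each genotype) had 1 mouse whose gap to the nearest other mouse, divided by the range of the 4, exceeded Dixon's 95% critical value. Chance marks about 1 group in 20, or 3.7 of the 74 by that rate. The same mice enter every gene, so the groups are not independent, and other genes were not examined in this way. Among flox mice, Fabp3 was low at 4373 in mouse 1 (others 4838 to 4913), Acsl1 was high at 1109 in mouse 3 (others near 1054), and Cpt1a was high at 19.58 in mouse 1 (others 16.8 to 17.3). Echs1 was low at 194.2 in flox mouse 2 (others 217 to 219.8), and Etfdh was high at 599.9 in flox mouse 3 (others 561 to 565). Among MI4KO mice, Angptl4 was low at 4.895 in mouse 4 (others 9.77 to 11.2), Fabp3 was low at 4249 in mouse 4 (others 4734 to 4791), and Etfb was high at 559.0 in mouse 3 (others 438 to 453).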

How the results depend on the processing

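No paired analysis was possible because each mouse has its own number in the labels and no number is shared between the groups. Under the 20 alternatives 0 of the 37 genes passed an adjusted p under 0.05, and their median log2 difference moved by less than 0.093, the spread between mice. Of the 37 genes, 24 changed sign under at least 1 alternative and 13 did not.

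Over all genes, the count at an adjusted p under 0.05 was 0 with 399 under an unadjusted 0.05, 0 with edgeR (363 unadjusted) and 0 with DESeq2 (248 unadjusted), and 0 to 1 with a mouse left out, the 1 without MI4KO mouse 2. The count past an unadjusted p of 0.05 and 1.5-fold was 26, and became 41 and 71 with pseudocounts of 0.5 and 0.1, 13 with a mean of at least 5, 13 with robust limma, 65 with edgeR and 51 with DESeq2. With a mouse left out it ran from 18 to 57, the latter without MI4KO mouse 4.

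At an unadjusted p under 0.05 there was 1 of the 37, and 0 with no filter, with limma without trend and with edgeR. The shares of all genes were 3.36%, and 3.53%, 4.01% and 3.06% in that order. With a mouse left out the number was 0 to 3 (0 whichever flox mouse was left out, 3 without MI4KO mouse 3), and 5 without flox mouse 1 and MI4KO mouse 3. Of all genes 2.19% to 5.21% lay there with a mouse left out, and 5.36% without both. With median-of-ratios scaling, equal column sums and DESeq2 the 1 gene was Dgat2, higher in MI4KO mice, in place of Cpt1a. Groups that did not overlap numbered 0 (2.07% of all genes) and 0 to 1 with a mouse left out (3.54% to 5.39% of all). Without both mice they numbered 6 (10.8% of all). The causes were not tested. Depth limits Irf4, with 4 to 23 reads, and among the 37 genes Angptl4, Dgat1 and Cpt1a, with as few as 81, 156 and 168.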
